A study of Rattus norvegicus with 9 samples.

Results

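The accessible regions of rat chromosome 10 were examined as one set, taken from the deposited table of ATAC-seq regions by chromosome name. They numbered 7780 of 186719 regions on 21 chromosomes, and they lay between positions 119238 and 112598948 of the chromosome in genome build rn6. The chromosome itself was chosen by a measured value, the median difference in normalized reads between injured and naive rats in these same libraries, so each difference between the groups below is a description of the chromosome and no test of it.

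All rats were adult female Sprague-Dawley rats. In the injured group the sciatic nerve had been loosely ligated, a model of neuropathic pain called chronic constriction injury (CCI), and the rats were sampled 14 days after surgery, whereas the naive group had no procedure. ATAC-seq was done on the ipsilateral lumbar dorsal root ganglia (DRGs, levels L4 to L6) of 2 CCI rats and 3 naive rats, with 1 rat per library. For each group, ChIP-seq mapped the histone mark H3K4me1 in 2 samples pooled from 3 rats, and the H3K4me1 regions were deposited as 1 merged list that does not tell the groups apart. A DRG contains sensory neurons, satellite glia, Schwann cells, immune cells and vessels, so that a change in the share of a cell type and a change of accessibility within cells cannot be told apart in these whole ganglia.

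In ATAC-seq the Tn5 transposase inserts sequencing adaptors where DNA is not wrapped tightly around nucleosomes, so reads pile up over open regions. Promoters are among the most open regions of a genome and are often rich in CG dinucleotides, whereas distal enhancers are typically marked by H3K4me1 and vary more between cell types. Neighbouring genes share chromatin domains over many kilobases, and chromosomes differ in how densely genes and open regions lie along them.

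The promoters of 3 genes are shown because the accessible region at each of them belongs to the set and because their genes were on the lists examined below. The sequences are those of RefSeq on build GRCr8, each from 250 bases before to 50 bases after a gene's start, and capitals mark the GC box GGGCGG on either strand, a motif of CG-rich promoters. *Stat5b* and *Stat3* encode transcription factors that act downstream of cytokine receptors, and *Vamp2* encodes a synaptic vesicle protein. They are given here with their GRCr8 positions, chr10:86275903-86276202 on the minus strand for *Stat5b*, chr10:54292539-54292838 on the plus strand for *Vamp2* and chr10:86363310-86363609 on the minus strand for *Stat3*.
Stat5b: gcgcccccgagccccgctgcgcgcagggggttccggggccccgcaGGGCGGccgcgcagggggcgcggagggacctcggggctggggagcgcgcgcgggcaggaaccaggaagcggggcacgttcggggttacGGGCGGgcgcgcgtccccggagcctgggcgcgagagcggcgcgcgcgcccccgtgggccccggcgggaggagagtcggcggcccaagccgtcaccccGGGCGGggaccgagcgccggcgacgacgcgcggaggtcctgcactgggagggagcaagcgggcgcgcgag
Vamp2: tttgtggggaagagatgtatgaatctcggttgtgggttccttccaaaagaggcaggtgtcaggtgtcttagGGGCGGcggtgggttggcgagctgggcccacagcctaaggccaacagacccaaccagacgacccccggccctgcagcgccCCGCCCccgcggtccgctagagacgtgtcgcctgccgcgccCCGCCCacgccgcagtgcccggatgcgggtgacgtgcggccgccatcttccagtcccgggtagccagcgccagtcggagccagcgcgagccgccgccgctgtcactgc
Stat3: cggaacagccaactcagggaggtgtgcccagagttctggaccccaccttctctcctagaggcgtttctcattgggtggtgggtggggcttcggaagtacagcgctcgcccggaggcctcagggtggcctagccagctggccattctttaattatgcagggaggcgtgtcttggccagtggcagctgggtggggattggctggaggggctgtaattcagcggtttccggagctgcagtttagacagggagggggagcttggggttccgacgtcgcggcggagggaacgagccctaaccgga

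The *Stat5b* window had a GC content of 82.7%, 53 CG dinucleotides and 3 GC boxes. The *Vamp2* window had a GC content of 69.3%, 31 CG dinucleotides and 3 GC boxes, and the *Stat3* window had 62.3%, 16 and no GC box. None of these 3 windows held the AP-1 motif TGANTCA or the STAT motif TTCNNNGAA on either strand. Of all 33469 promoter windows, 33.1% held a GC box, 7.33% the AP-1 motif and 8.87% the STAT motif. On chromosome 10 the shares were 38.5%, 6.93% and 8.99% of 2236 windows. A GC box was thus somewhat more frequent on chromosome 10 than on the other chromosomes (32.9% of 30912 windows).

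A further accessible region lay at the promoter of *Mir212*, a microRNA gene whose neighbour *Mir132* is transcribed from the same locus. The mature microRNAs of the pair are shown, from RefSeq on GRCr8 at chr10:60521811-60521832 and chr10:60522091-60522112 on the plus strand, with the seed (bases 2 to 8) in capitals because the seed pairs with target RNAs.
rno-miR-212-3p: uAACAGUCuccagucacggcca
rno-miR-132-3p: uAACAGUCuacagccauggucg

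Both carry the same seed, AACAGUC. The last sequences shown are the primers with which the study cloned a distal region of the chromosome, near *Stac2*, into a reporter construct of 655 bases (chr10:86037079-86037733 in rn6). Capitals mark the 20 genomic bases of each primer and small letters the cloning tail.
forward primer: atcagctagcGCCTGGTGAGAAAACAAGCA
reverse primer: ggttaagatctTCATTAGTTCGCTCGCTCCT

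The deposited values, hereafter normalized reads, were read numbers scaled by a size factor of each library. The libraries held 4633807 (naive rat 2) to 13248437 (naive rat 1) reads in regions, and chromosome 10 received 245077 to 623545 of them. As a share of a library's reads, chromosome 10 took 6.53% in CCI rat 1 and 6.19% in CCI rat 2. In naive rats 1, 2 and 3 it took 4.71%, 5.29% and 4.88%. Both CCI shares thus lay above the 3 naive shares. The depth behind a single region was low, with a median of 11 reads per region in naive rat 2, 17 in naive rat 3 and 25 to 33 in the other rats, and 431 regions (5.54%) stood at the lowest value of 1 read in naive rat 2.

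The difference between the groups was spread over most of the chromosome. The median region had 16.7 normalized reads in CCI rat 1 and 14.7 in CCI rat 2, against 10.8, 11 and 11.2 in naive rats 1, 2 and 3. Medians of the regions on the other chromosomes were 11.3 and 10.5 in the CCI rats and 10.1, 9 and 9.86 in the naive rats. Chromosome 10 was therefore somewhat above the rest of the genome in naive rats and further above it in CCI rats. The median log2 fold change (CCI over naive, on log2(normalized reads + 1)) was 0.49, with quartiles of 0.14 and 0.81, and 80.8% of the regions were above 0. On the other chromosomes the median was 0.11 and 57.1% of the regions were above 0, which left an excess of 0.38 for chromosome 10. When the median of the other chromosomes was subtracted in each rat, chromosome 10 stood at 0.52 and 0.44 in the CCI rats and at 0.08, 0.26 and 0.16 in the naive rats (log2 scale). The groups did not overlap on that measure, and the replicate SD of the excess was 0.0806. Chromosome 10 ranked 2 of 21 chromosomes by its median, and chromosome 12 had a median of the same rounded size.

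**Figure D1:**
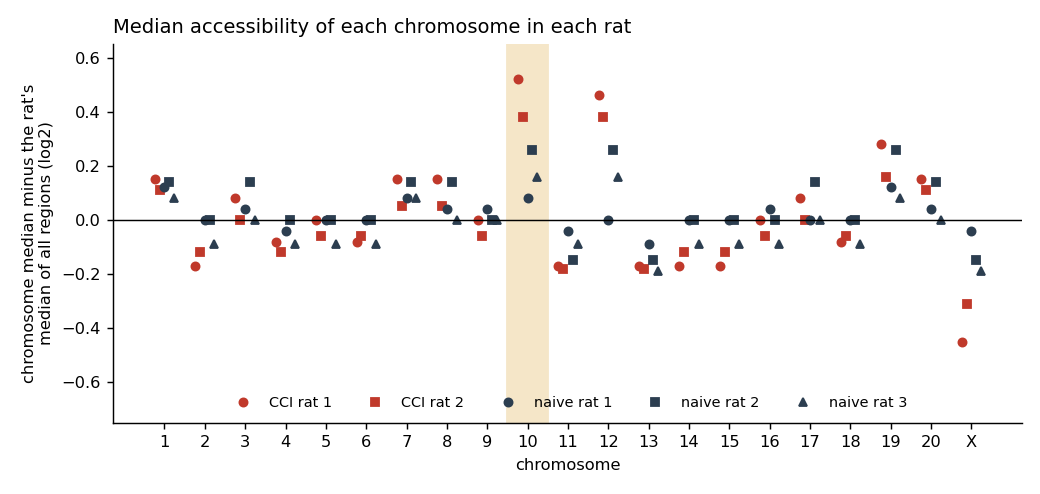
Median of log2(normalized reads + 1) over the regions of each chromosome minus the median of all regions, in each of the 5 rats (log2 units). Chromosome 10 is shaded. Its CCI points, at 0.52 and 0.38, lie above its naive points, at 0.08, 0.26 and 0.16, and chromosome 12 shows a like order.

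Base composition moved with this ranking. The median GC content of RefSeq promoters was 55.0% on chromosome 10 and 54.7% on chromosome 12, which ranked 1 and 2 of the 21 chromosomes, against 51.7% over all promoters of the other chromosomes. Over the 21 chromosomes, median promoter GC content and median log2 fold change had a Pearson's r of 0.73 and a Spearman's rho of 0.69, and r was 0.53 without chromosomes 10 and 12. The points share the same 5 libraries and depth, and the part of base composition in the difference was not tested.

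Single regions were called at a two-sided limma p below 0.01, without adjustment, in a fit over all 186719 regions. On chromosome 10, 646 regions (8.30%) were called, 625 higher and 21 lower in CCI rats. The background share of called regions over all chromosomes was 3.59%, with 2.13% higher and 1.46% lower. At a Benjamini-Hochberg adjusted limma p below 0.05 there were 44 regions, 42 higher and 2 lower, beside a background of 0.344%, but 1 without naive rat 1 and 3 without CCI rat 1. At the unadjusted threshold, the region just inside had a log2 fold change of 0.77 and the region just outside 0.67. Without any test, both CCI values exceeded all naive values in 2880 regions (37.0%, background 18.2%) and were below them in 254 (3.26%, background 11.0%). These counts restate the difference by which the chromosome was picked, and nothing is read from them.

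The number of calls rested on particular libraries and on the reference level. Without CCI rat 1 it was 102, with 83 higher and 19 lower, and without naive rat 1 it was 319. When each library was centred on the median of each chromosome, a region was compared with the rest of its own chromosome. Then 134 regions were called, 8 higher and 126 lower, and centring on each 1 Mb window gave 19 higher and 119 lower. Over all chromosomes these centrings called 6621 and 6208 of 186719 regions, a larger share than on chromosome 10. Of the 646 called regions, 29 were also called after centring on the chromosomes and 28 after centring on the windows. The 625 regions called higher were therefore called against the level of the whole genome, and few were called against their own chromosome.

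Chromosome 10 was dense in H3K4me1. Of its regions, 3567 (45.8%) overlapped a region with the mark, against 30.7% on the other chromosomes and 45.6% on chromosome 12. It carried 12614 H3K4me1 regions over 12.5 Mb, and their median length was 689 bp against 617 bp elsewhere. H3K4me1 regions of at least 1 kb made up 29.6% of them, against 24.7% elsewhere. Accessible regions of chromosome 10 had a median length of 266 bp, with a range of 150 to 2615 bp, and those on the other chromosomes a median of 244 bp. More of the chromosome's open regions were thus long and marked.

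Regions with the mark were the more open ones in every rat. Their median was 32.7 and 26.6 normalized reads in the CCI rats and 20.6, 24 and 20.4 in naive rats 1, 2 and 3. Regions without it had medians of 12 and 11 in the CCI rats and 8.17, 8 and 7.89 in the naive rats. Both classes were thus higher in CCI rats, with no overlap between the groups. The median marked region was 386 bp long and the median unmarked one 223 bp.

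The ratio of marked to unmarked regions does not use the comparison by which the chromosome was picked and could be tested over rats. On chromosome 10 it was 2.72 and 2.42 in the CCI rats and 2.52, 3 and 2.58 in the naive rats, a mean of 2.65 ± 0.226 (SD, n = 5). On the other chromosomes it was 2.62, 2.10, 2.03, 2.86 and 2.42 in the same order, a mean of 2.40 ± 0.346 (SD, n = 5). The ratio was higher on chromosome 10 in 5 of 5 rats, by a log2 difference of 0.15 ± 0.107 (SD, n = 5). An exact two-sided sign-flip permutation test over the 5 rats gave p = 0.0625, the smallest value it can give with 5 rats, so this design could not pass a threshold of 0.05. The direction turned when means were used in place of medians. The ratios were then 4.26 on chromosome 10 and 4.44 elsewhere, a log2 difference of -0.06. For these ratios of means, the exact two-sided sign-flip permutation test over the 5 rats also gave p = 0.0625, its smallest value. With reads per base, the ratios were 1.71 on chromosome 10 and 1.59 elsewhere, a log2 difference of 0.10. For reads per base, the exact two-sided sign-flip permutation test over the 5 rats gave p = 0.125. The direction of the difference thus depended on the measure.

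Taken over all regions of the chromosome, the size of the CCI difference was nearly the same with and without the mark. In the quintiles of signal below it was higher with the mark, though in some of them by very little. Its median was 0.48 with H3K4me1 and 0.50 without, a difference of -0.01 that was far below the replicate SD of 0.127. The spread was narrower among marked regions, with quartiles of 0.21 and 0.73 against 0.05 and 0.91. Calls were more frequent among marked regions, with 420 (11.8%; 412 higher, 8 lower) against 226 of 4213 (5.36%; 213 higher, 13 lower), beside the background of 3.59% over all chromosomes. Marked regions had 24 to 63 median reads per library and unmarked regions 8 to 25. Where the H3K4me1 region was at least 1 kb long the median difference was 0.49 and 14.1% of 2463 regions were called, and where it was shorter the values were 0.45 and 6.61% of 1104. The share of called regions thus moved with read depth, and the median difference over all regions of a class did not.

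Region length gave the same picture. From the shortest class of 150 to 199 bp to the longest of at least 1000 bp, the median difference was 0.52, 0.53, 0.48, 0.43 and 0.51 in order. The share called grew from 1.58% of 2280 regions to 20.5% of 502 regions, and the share with H3K4me1 from 27.3% to 95.4%. On the other chromosomes the medians of the same classes lay between 0.03 and 0.16. Chromosome 10 was above them in each length class.

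Whether the difference depended on the starting level was described in quintiles of 1556 regions each. Ordered by the mean of the naive rats, the quintiles had median log2 fold changes of 0.96, 0.45, 0.39, 0.39 and 0.43 from the least to the most open. The high value of the lowest quintile shares its error with the naive values that define the class. When naive rat 1 alone set the classes and the fold change was taken against the other naive rats, the medians were 0.76, 0.59, 0.45, 0.42 and 0.37. When the mean of all 5 rats set them, the medians were 0.57, 0.52, 0.54, 0.47 and 0.45. A difference was therefore seen at every level of signal, whereas its steepness depended on how the classes were made. On the other chromosomes the quintiles by the mean of all rats had medians of 0.13, 0.16, 0.16, 0.12 and 0.04. In the order by the naive mean they had 0.72, 0.14, -0.04, -0.03 and -0.02, and in that by naive rat 1 they ran from 0.52 to -0.02, so the high value of the lowest quintile was not particular to chromosome 10. Chromosome 10 was above the other chromosomes in each quintile of the same order. By the naive mean, its marked regions had medians of 0.99, 0.56, 0.50, 0.44 and 0.45, and its unmarked ones 0.95, 0.40, 0.31, 0.33 and 0.23. By the mean of all rats the marked had 0.61, 0.53, 0.55, 0.48 and 0.47, and the unmarked 0.56, 0.52, 0.54, 0.45 and 0.31. Marked regions were thus the higher ones in each quintile of these orders. By the mean of all rats the gap was very small in the middle quintiles, such as 0.55 against 0.54. The most open quintile of chromosome 10, of which 88.9% had H3K4me1 in the order by naive rats, was thus 0.43 to 0.45 above naive in the orders by the naive mean and by all rats.

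**Figure D2:**
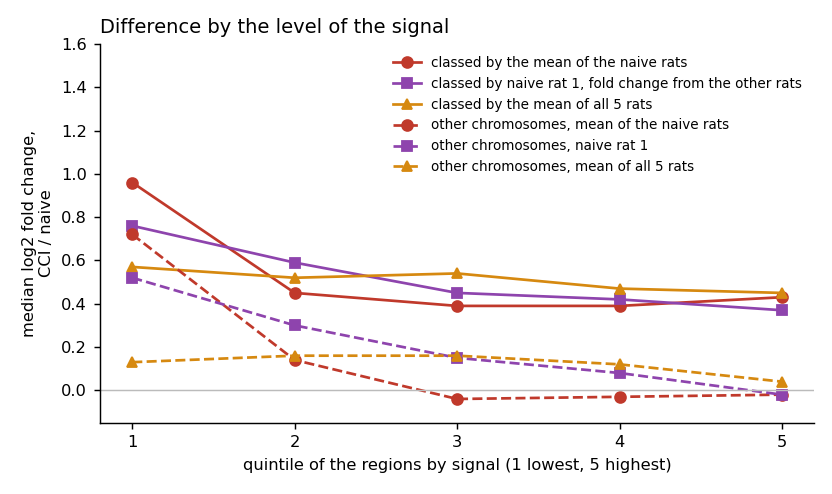
Median log2 fold change (CCI over naive) in quintiles of the regions ordered by signal, from 1 (least open) to 5 (most open), for 3 ways of making the quintiles, on chromosome 10 (solid lines) and on the other chromosomes (dashed lines). The chromosome 10 lines run from 0.96, 0.76 and 0.57 to 0.43, 0.37 and 0.45, each above the line of the other chromosomes in the same order, which starts at 0.72, 0.52 and 0.13.

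Along the chromosome the difference was uneven. In stretches of 20 Mb from the start, the median log2 fold change was 0.40, 0.24, 0.47, 0.52 and 0.60, and it was 0.63 in the last stretch of 100 to 113 Mb. The share of regions above 0 was 64.1% between 20 and 40 Mb and 88.9% in the last stretch. Of the 21 regions called lower, 19 lay in the first 40 Mb, where 87 of the 625 higher calls lay. The stretch up to 20 Mb had 7 lower calls among 1401 regions, and that from 20 to 40 Mb had 12 among 1190. Over all chromosomes 1.46% of regions were called lower, so lower calls were no more frequent in these stretches than in the background. Beyond 40 Mb thus lay most of the higher calls and few of the lower ones.

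The chromosome was next cut into 113 windows of 1 Mb, of which 108 held at least 20 regions (27 to 138, median 68). Window medians ranged from -0.26 to 0.76, with quartiles of 0.25 and 0.60 and an SD of 0.249. Both CCI rats had a higher median than all naive rats in 83 windows (76.9%), and in 0 windows were both below. Over the 2607 windows of the other chromosomes these shares were 38.2% and 7.10%. Only 11 windows (10.2%) had a median below 0, against 45.3% elsewhere. In each of these 11 windows the values of the CCI and naive rats overlapped before any centring.

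Neighbouring windows were alike, with a Pearson's r of 0.62 between the medians of the 103 pairs of adjacent windows, which share the same 5 libraries. When each rat was centred on its own chromosome 10 median, both CCI values exceeded all naive values in 20 windows (18.5%) and were below them in 22 (20.4%), and 66 overlapped. On the other chromosomes, centred on their own medians, the shares were 18.5% and 24.3%. After centring, chromosome 10 was therefore no more uneven than other chromosomes by this count. The windows with a median below 0 were all among the 22, and they were picked by the same difference.

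**Figure D3:**
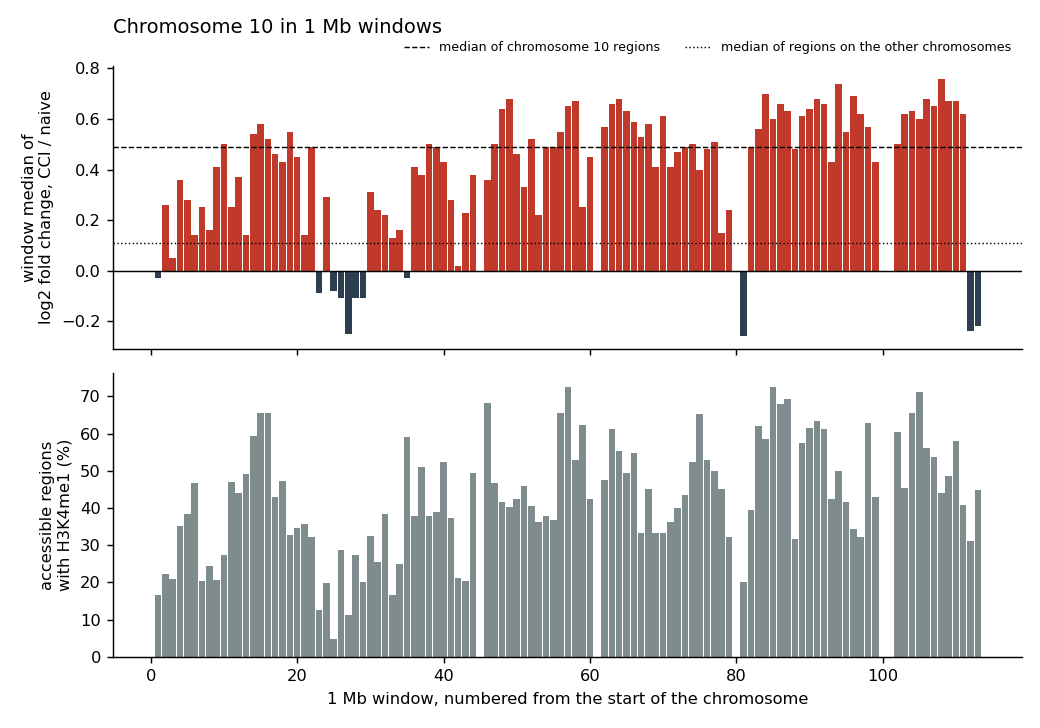
Top, median log2 fold change (CCI over naive) of the regions in each 1 Mb window of chromosome 10 with at least 20 regions, with lines at the median of the chromosome (0.49) and of the other chromosomes (0.11). Bottom, share of the window's accessible regions with H3K4me1 (%). The 11 windows below 0 stand in 6 places, the longest near window 25 to 29, and most windows beyond window 45 lie near or above 0.49.

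The windows below 0 formed 6 runs that held 497 regions in all. Of these, 120 (24.1%) had H3K4me1, none was called higher and 10 (2.01%) were called lower, beside the background of 1.46% called lower. The longest run went from 24 to 29 Mb and held 249 regions with a median difference of -0.11, of which 17.7% had H3K4me1. Its median region had 6.68 and 6.87 normalized reads in the CCI rats and 8.82, 6 and 7.23 in naive rats 1, 2 and 3. The CCI rats thus lay between naive rat 2 and naive rat 3 there. None of its regions carried a gene name in the study's lists, and the nearest named genes were *Nme4* before it and *Rack1* after it, with 100 protein-coding genes between them in the GRCr8 annotation.

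The other low places were short. The window from 22 to 23 Mb had a median of -0.09 over 48 regions, and the first window of the chromosome had -0.03 over 54. The window from 34 to 35 Mb, which held regions named for *Rack1*, a ribosomal scaffold protein, and *Trim41*, a ubiquitin ligase, had -0.03 and 4 lower calls among 49 regions. It was an exception among low windows in that 59.2% of its regions had H3K4me1. The window from 80 to 81 Mb had the lowest median among windows with at least 20 regions, -0.26 over 30 regions, with CCI medians of 5.67 and 7.10 normalized reads and naive medians of 9.32, 6 and 5.58. Without naive rat 1 its median was 0.00. The window lay between the named genes *Dgke* and *Spag9*, an interval with 24 protein-coding genes in the GRCr8 annotation.

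The chromosome ended in a low run. The last windows, from 111 to 113 Mb, held 67 regions with a median of -0.24 and 38.8% with H3K4me1. Their median region had 12.7 and 11.9 normalized reads in the CCI rats and 14.4, 14 and 13.1 in the naive rats. Directly before them, 10 windows from 101 to 111 Mb formed the longest run at or above the chromosome median, with 954 regions and a median of 0.65. The run held 145 higher calls and 0 lower calls in limma. On the whole chromosome 8.03% of regions were called higher and 21 of 7780 lower. There the CCI rats had medians of 22 and 19.2 and the naive rats 12.7, 14 and 13.1, so that over the pooled regions of each run the CCI rats were above all naive rats before 111 Mb and slightly below all of them after it. In each of the last windows taken singly the groups overlapped. One region there was listed for *Vom2r1*, a gene that RefSeq places on another chromosome in GRCr8, and the placement of this stretch in rn6 was not checked.

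Naive rat 1 had the highest median of all 5 rats in 8 of the 11 low windows. Without it, 6 windows were below 0. This rat also had the deepest library, and its part in the low windows was not tested further.

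The highest windows lay in the second part of the chromosome. The window from 107 to 108 Mb had a median of 0.76 over 93 regions, with 15 higher calls, and held named regions of *Socs3*, an inhibitor of cytokine signalling, *Timp2*, an inhibitor of matrix proteases, *Rbfox3*, which encodes the neuronal splicing factor NeuN, *Cyth1*, *Cant1*, *Lgals3bp* and *Usp36*. The window from 93 to 94 Mb (*Mrc2*, *Tanc2*, *Tlk2*) followed with 0.74, and the one from 83 to 84 Mb (*Spop*, *Tac4*) with 0.70. The windows from 95 to 96 Mb (*Kpna2*) and from 90 to 91 Mb (*Grn*, *Ubtf*, *Adam11* and others) had 0.69 and 0.68. In all 5 of these windows, picked for their high medians, both CCI values exceeded all naive values, and none held a lower call. The groups were apart in this way in 83 of the 108 windows. Of the chromosome's 7780 regions, 8.03% were called higher and only 21 regions lower, beside 2.13% and 1.46% over all chromosomes. With each rat centred on its chromosome 10 median, the groups stayed apart in the windows from 107 and from 95 Mb. They overlapped in those from 93, 83 and 90 Mb.

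Window medians went along with the density of open and marked chromatin. Over the 108 windows of chromosome 10, Pearson's r of the window median was 0.62 with the number of regions, 0.61 with the share of regions with H3K4me1, 0.72 with the kilobases of H3K4me1 and 0.40 with the naive level. The points share the 5 libraries and their depth. Over the other chromosomes the values were 0.33, 0.63, 0.73 and 0.30, so that a relation with H3K4me1 of the same strength was seen there too. In windows with under 20% of regions marked, the median was -0.06 on chromosome 10 (6 windows) and -0.14 elsewhere (830 windows). With 20 to 40% marked, the medians were 0.31 (39 windows) and 0.07. With 40 to 60% they were 0.51 (44 windows) and 0.28, and at 60% or more 0.60 (19 windows) and 0.37. Chromosome 10 thus lay above other chromosomes within each class of H3K4me1 share, by the least in the class with the fewest marks, and it had few windows of that class.

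**Figure D4:**
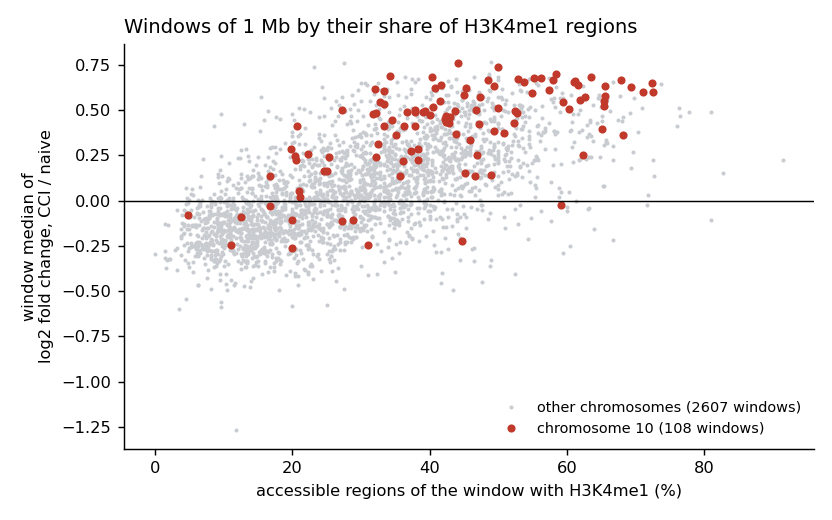
Median log2 fold change (CCI over naive) of each 1 Mb window against the share of its accessible regions with H3K4me1 (%), for 108 windows of chromosome 10 and 2607 windows of the other chromosomes. Both clouds slope upwards (r of 0.61 and 0.63), and most chromosome 10 windows lie in the upper right.

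Sorting windows by their number of regions gave a like order. Windows of chromosome 10 with 20 to 39 regions had a median of 0.22, those with 40 to 59 regions 0.25, those with 60 to 79 regions 0.43 and those with 80 or more 0.60. The other chromosomes had -0.09, -0.04, 0.02 and 0.18 in the same classes. The SD over windows of the difference between 2 rats, each centred on its own chromosome median, was 0.200 to 0.252 for rats of the same group and 0.205 to 0.396 for a CCI with a naive rat, and these ranges overlapped.

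Among single regions, the largest calls in both directions were weakly open ones with few reads. The region at chr10:38286675-38286893 had 19.4 and 12.4 normalized reads in the CCI rats (29 and 27 reads) against 2.29, 1 and 3.94 in the naive rats (7, 1 and 6 reads), a log2 fold change of 2.37 ± 0.748 (SE). The region at chr10:63608669-63608912, listed for *Prpf8*, a core splicing factor, had 20 and 7.78 against 4.57, 1 and 1.31, a log2 fold change of 2.20 ± 0.832 (SE). The other largest increases, at chr10:105935298-105935447, chr10:92389896-92390102 and chr10:98408261-98408736, had values of 2.32, 2.20 and 2.14. Of these 5 regions only the one listed for *Prpf8* had H3K4me1, and none passed the adjusted threshold in limma. With a pseudocount of 10 in place of 1, the 5 increases were 0.91 to 1.06.

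The largest decreases lay in the first 40 Mb. The region listed for *Rack1* at chr10:34138159-34138411, with H3K4me1, had 2 and 4.12 normalized reads in the CCI rats and 16.7, 8 and 12.5 in the naive rats, a log2 fold change of -1.72 ± 0.609 (SE). The region at chr10:2215213-2215522 had -1.83 and its near neighbour at chr10:2271092-2271404 had -1.57, with 5.34 and 7.33 against 22.5, 28 and 13.8 normalized reads. The regions at chr10:20204426-20204631 and chr10:31119124-31119313 had -1.68 and -1.60, and without CCI rat 1 they had -1.03 and -0.73. With a pseudocount of 10 the 5 decreases were -0.92 to -0.67. All CCI values of these 5 regions lay below all naive values, as the choice of the regions required. Centring on the chromosome median made the decreases larger, for example -2.19 for *Rack1*, and left the largest increase at 1.90.

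The 5 regions most open in naive rats mostly differed little between the groups. They were picked by naive values, which share their error with the fold change, and the most open quintile by naive mean had a median of 0.43. The region at chr10:6868944-6870881 had 675 and 462 normalized reads in the CCI rats and 425, 583 and 465 in the naive rats, and the groups overlapped (0.20 ± 0.293, SE). Overlap was also seen at chr10:40811859-40813367 (0.26), chr10:75365072-75365522 (-0.26) and chr10:29288655-29290054 (0.04). The promoter region of *Rab40c*, a small GTPase gene, was the exception among the 5, with 704 and 578 against 389, 495 and 356, a log2 fold change of 0.64 ± 0.290 (SE) that was not called.

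The cloned region near *Stac2* had more reads than the extreme regions above. *Stac2* encodes an adaptor protein of voltage-gated calcium channels, and the region, chr10:86036954-86037667 with H3K4me1, overlaps the construct whose primers are given above. It had 40 and 42.6 normalized reads in the CCI rats (60 and 93 reads) and 14.4, 8 and 11.2 in the naive rats (44, 8 and 17 reads). The CCI values were well apart from the naive values, with a log2 fold change of 1.83 ± 0.366 (SE). It was 1.87 without CCI rat 1 and 1.79 without CCI rat 2. Each of these fits leaves 1 CCI rat, so only the size is given and not whether the region passed. The region passed the adjusted threshold in limma (adjusted p = 0.00178). It did not pass after centring on the chromosome or window median (adjusted limma p of 0.0737 and 0.467), without a mean-variance trend (0.507) or at equal aligned depth (0.0527). With DESeq2 the adjusted p was 0.180. After centring on the chromosome median 1.36 was left.

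Gene names were available for 317 regions and 252 genes, and they came from lists that the study drew up from its own calls on these libraries. A named region was therefore chosen for its difference, and counts over named regions are no independent evidence of direction. On the promoter list, all 107 regions of chromosome 10 had a log2 fold change above 0, with a range of 0.55 to 1.21 and a median of 0.72, against 0.49 over all regions of the chromosome. Of these 107 regions, 75 were called, beside the background of 2.13% called higher. RefSeq promoters were found for 86 of the 107 genes (88 windows), and their median GC content was 67.2% with 27.5 CG dinucleotides, against 55.0% and 9 for the chromosome. A GC box was found in 77.3% of them, the AP-1 motif in 2.27% and the STAT motif in 5.68%.

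Of 25 genes of the list of sensory neuron channels and receptors, 2 had a named region, and both were called higher, beside 2.13% of regions called higher over all chromosomes and 8.03% on chromosome 10. *Cacng5*, which encodes a calcium channel gamma subunit, had 44.7 and 49.9 normalized reads in the CCI rats and 21.9, 31 and 21 in the naive rats, a log2 fold change of 0.93 ± 0.305 (SE). *Stac2* is described above.

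The list of cytokine and JAK-STAT genes had regions for 5 of 20 genes, and 3 were called higher (background 2.13%, chromosome 10 8.03%). The promoter region of *Stat5b*, whose sequence is shown above, had 171 and 115 normalized reads in the CCI rats. The naive rats had 74.8, 68 and 48.6. Its log2 fold change of 1.15 ± 0.256 (SE) passed the adjusted threshold in limma, and it was 0.86 without CCI rat 1. That last fit leaves 1 CCI rat, so only the size is given and not whether the region passed. The region did not pass without naive rat 1 or naive rat 3 (adjusted limma p of 0.113 and 0.158). Nor did it pass after centring on the chromosome or window median (0.283 and 0.409), with replicate number as a block (0.536) or without a mean-variance trend (0.507). With DESeq2 the adjusted p was 0.211. *Ccl2*, a chemokine that attracts monocytes, had 47.4 and 59.1 against 31.4, 24 and 25 (0.97), and *Socs3* had 134 and 119 against 57.5, 87 and 59.1 (0.91). *Stat3* (0.67) and *Irf1*, an interferon-responsive transcription factor (0.61), were not called, although the groups did not overlap. *Stat3* had 511 and 378 normalized reads in the CCI rats and 248, 293 and 287 in the naive rats.

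The list of cytoskeleton and vesicle genes had regions for 7 of 12 genes, and 6 were called higher (background 2.13%, chromosome 10 8.03%). *Mapt*, which encodes the axonal microtubule protein tau, had 38 and 31.6 normalized reads against 12.1, 20 and 15.1, a log2 fold change of 1.12 ± 0.347 (SE). *Actg1*, a cytoplasmic actin, had 0.91, *Vamp2* 0.86, *Pfn1*, an actin-binding protein, 0.79, *Ywhae* 0.76 and the kinesin gene *Kif1c* 0.71. The value of *Tubg1*, a gamma-tubulin, was 0.66 and was not called. At *Vamp2* the CCI rats had 178 and 131 normalized reads and the naive rats 86.6, 91 and 74.9, so that this region too was apart between the groups.

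The list of transcription factor genes had regions for 6 of 19 genes, and 3 were called higher (background 2.13%, chromosome 10 8.03%). *Hoxb3*, a patterning gene of the homeobox B cluster, had 74.8 and 49 normalized reads against 26.8, 37 and 18.4. Its log2 fold change of 1.17 ± 0.293 (SE) passed the adjusted threshold in limma, and it was 0.87 without CCI rat 1. That last fit leaves 1 CCI rat, so only the size is given and not whether the region passed. The region did not pass without naive rat 1 or naive rat 3 (adjusted limma p of 0.248 and 0.226). Nor did it pass after centring on the chromosome or window median (adjusted limma p of 0.396 and 0.519) or at equal aligned depth (0.112). The adjusted limma p was 0.503 with replicate number as a block and 0.507 without a mean-variance trend. With DESeq2 the adjusted p was 0.553. The neighbouring gene *Hoxb4* had 0.88 and the thyroid hormone receptor gene *Thra* 0.79. *Rara* (0.64), *Nr1d1* (0.63) and *Tbx2* (0.61) were not called. Of 9 genes of Schwann cells and satellite glia, 1 had a region, *Cnp*, which encodes an enzyme of myelinating cells. It had 282 and 223 normalized reads in the CCI rats and 156, 191 and 134 in the naive rats (0.66) and was not called, so the share of glial cells could not be followed on this chromosome.

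The promoter regions of the microRNA genes were in the same range. That of *Mir212*, which lies beside *Mir132* and shares the seed shown above, had 159 and 112 normalized reads in the CCI rats and 71.5, 81 and 76.2 in the naive rats, a log2 fold change of 0.80 ± 0.254 (SE). That of *Mir193* had 146 and 120 against 69.6, 96 and 80.2, a value of 0.70 ± 0.254 (SE). Both were called higher.

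**Figure D5:**
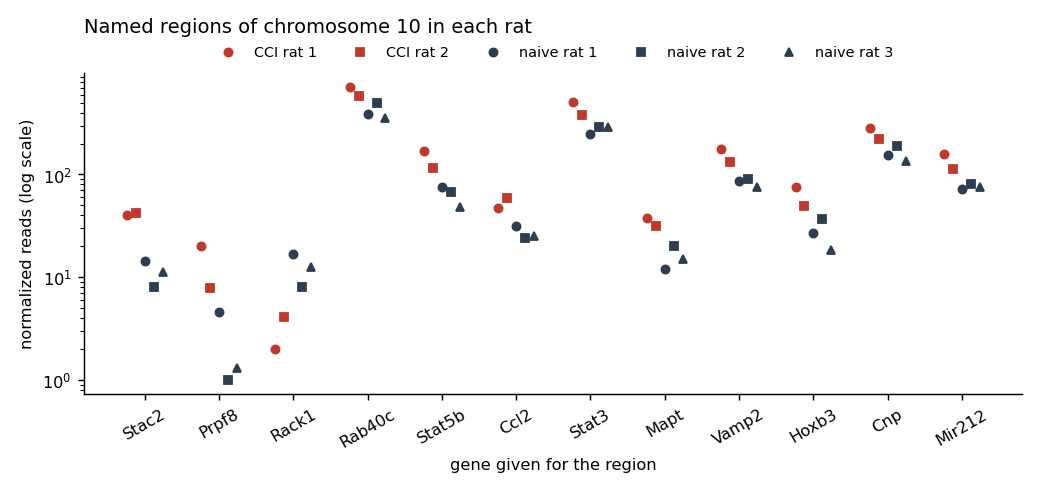
Normalized reads (log scale) in each of the 5 rats for 12 named regions of chromosome 10, labelled by the gene given for the region. The 2 CCI rats lie above the 3 naive rats in 11 regions and below them at Rack1, with a wide gap at Stac2.

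Set against the median of their own chromosome, the increases at named regions were smaller. After centring on the chromosome median, 0.67 was left at *Stat5b*, 0.70 at *Hoxb3* and 0.65 at *Mapt*, whereas 0.49 was left at *Ccl2*, 0.39 at *Vamp2*, 0.20 at *Stat3* and 0.18 at *Cnp*. Without CCI rat 1 the values before centring of *Ywhae*, *Kif1c*, *Thra*, *Hoxb4*, *Tubg1*, *Rara* and *Tbx2* were 0.50, 0.45, 0.51, 0.55, 0.40, 0.36 and 0.40. In the window around *Stat5b*, *Stat3* and *Cnp* the median was 0.61, and it was 0.43 around *Mapt*. With all rats and before centring, these named regions were above the chromosome's median of 0.49. Several of them, such as *Stat3* (0.67) and *Cnp* (0.66), were below its upper quartile of 0.81. The names came from lists chosen for a difference, so a place above the median is no independent result.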

How the data were processed

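ATAC-seq libraries of 2 CCI and 3 naive rats and the merged H3K4me1 regions were used, grouped by the sample labels. The paper's Results state these numbers of rats the other way round, whereas the differential analysis in its Methods uses the labels' numbers and the library protocol gives 3 rats per group. The authors aligned reads to rn6 with Bowtie2, kept a mapping quality of at least 10, removed duplicates, called regions with MACS2 and deposited the signal of each region as its reads divided by the library's size factor (1.00 to 3.06, relative to naive rat 2), with a lowest value of 1 read. The submitters' processing notes also name CASAVA 1.8.2 and limma. The size factors were estimated from the steps between the deposited values. Multiplying by them gave whole reads for 100% of values within 0.006 normalized reads, or slightly more for the highest values. This gave no library complexity or fragment sizes, and counting error limits single regions.

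The members and gene lists were chosen with earlier results of these data known. limma 3.58.1 (R 4.3.3), with a mean-variance trend on log2(normalized reads + 1), was fitted on all 186719 regions, which understates changes of weak regions. Overlaps of at least 1 bp with H3K4me1 were found with bedtools 2.31.1, and other steps used Python 3.11.15, numpy 2.4.6, pandas 2.3.3, scipy 1.17.1 and matplotlib 3.10.9. Regions were assigned to 1 Mb windows by their start, and windows with under 20 regions were left out. The permutation test on the H3K4me1 ratio was exact. With 2 against 3 rats, an exact permutation test of the groups could not go below p = 0.1.

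Regions named were among called regions with groups apart, the 5 highest and 5 lowest log2 fold changes, the 5 most open in naive rats, the cloned region and, for listed genes with a named region, the one with the highest mean. The microRNA genes and the promoters shown were chosen after their values were seen. Named windows were the 5 highest and 5 lowest. Gene names came from the study's region lists, of which that of H3K4me1 regions was held only in part, and neighbouring genes and sequences from RefSeq on GRCr8. No genome of build rn6 was used, so region sequences and the GC correction are not given.

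Alternatives were pseudocounts of 0.1 and 10, other thresholds, rescaling by median of ratios or quantiles, equal depth and centring by chromosome or window. Other fits were limma without a trend, edgeR 4.0.16 and DESeq2 1.42.0 (whole reads, estimated factors) and edgeR with TMM factors. Other windows, overlaps and filters, a replicate block and leaving out each rat were also used. Equal depth for the calls, equal aligned depth, rescaling for the excess, and windows of unmarked regions were added after the data had been seen. The fits were tested on simulated reads with known changes.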

Additional observations from a re-analysis of the deposited data

How the results depend on the processing

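The chromosome 10 median of 0.49 stayed above 0 in every alternative run. It was 0.32 with a pseudocount of 10, 0.38 with median-of-ratios rescaling, 0.40 with quantile normalization, 0.39 at equal depth and 0.35 to 0.60 without 1 rat (lowest without CCI rat 1). The excess of 0.38 over the other chromosomes was 0.26 with a pseudocount of 10, 0.30 to 0.46 without 1 rat and 0.35 to 0.41 in the other alternatives. The 646 calls became 1757 at p below 0.05, 44 after adjustment, 192 without a trend in limma, 314 with DESeq2, 398 with H3K4me1 regions fitted alone, 426 with median-of-ratios rescaling, 134 with chromosome centring, 138 with window centring and 102 to 878 without 1 rat. The number after adjustment was 44 in limma, 67 with edgeR, 0 with DESeq2, 0 in limma without a trend, 2 with the replicate block, 394 with quantile normalization and 1 to 115 without 1 rat (lowest without naive rat 1). The difference between top and bottom quintiles by naive signal, -0.54, was -0.12 when the mean of all rats made the quintiles and -0.03 with a pseudocount of 10. The 11 windows below 0 became 18 of 183 windows of 0.5 Mb, 3 of 57 windows of 2 Mb, 2 of 77 windows with H3K4me1 regions only and 6 to 13 without 1 rat. The H3K4me1 ratio difference of 0.15 reversed to -0.06 with means, and the region at chr10:40811859-40813367 to -0.21 with chromosome centring. The causes were not tested. Of 342 values of named regions in alternatives, 6 changed sign, in 3 of the regions most open in naive rats, and of 90 values of named windows 1 did, to 0.01 without CCI rat 1.

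With the replicate block, 306 regions were called and the median was 0.46. Same-numbered rats are different animals and their deviations correlated at -0.062 and -0.056, so the numbers do not pair them. Counting error limits most single regions, with a median of 11 reads in naive rat 2.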

Other observations

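Chromosome X stood at the other end of the order of chromosomes from chromosome 10. Its median log2 fold change was -0.12 over 5538 regions, with 10 called higher and 114 lower in limma. These were 2.24% of its regions, beside 3.59% called over all chromosomes (2.13% higher, 1.46% lower). Relative to the median of all regions, it lay at -0.45 and -0.31 in the CCI rats and at -0.04, -0.15 and -0.19 in naive rats 1, 2 and 3. Chromosome 12 lay at 0.46 and 0.38 in the CCI rats and at 0.00, 0.26 and 0.16 in the naive rats, close to chromosome 10 in each rat, at 0.52 and 0.38 and at 0.08, 0.26 and 0.16. CCI rat 1 was farther from its genome-wide median than CCI rat 2 on all 3 chromosomes.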
